A study of Homo sapiens with 6 samples.

Results

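NEAT1, MALAT1 and 7 proteins of the paraspeckle (SFPQ, NONO, PSPC1, RBM14, TARDBP, DAZAP1 and MATR3) were followed in the acute myeloid leukemia line MOLM13 on ZW27941, a PROTAC that recruits the ubiquitin ligase VHL to the m6A methyltransferase METTL3. These are 9 of the 56305 genes listed in the files. The set was chosen by the lower NEAT1 counts on ZW27941 and filled with genes taken by name, so the values of NEAT1 are given as a description, without a test. The question was whether the proteins and MALAT1 moved with NEAT1. In each of 3 libraries per group, RNA from cells kept for 24 h in ZW27941 (1 μM) or in the solvent DMSO, to which the labels give the same concentration, was sequenced. All 6 libraries are of 1 cell line, which carries an internal tandem duplication of FLT3 and a t(9;11)(p22;q23) translocation. No source states that the replicates came from separate cultures, so p-values measure the spread between these libraries, which may be technical.

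Paraspeckles are small nuclear bodies built on the long non-coding RNA NEAT1. The long NEAT1 transcript is the scaffold, and the proteins SFPQ, NONO and PSPC1, which pair with one another through shared domains, coat it along with other RNA-binding proteins. MALAT1 is transcribed next to NEAT1, gathers in nuclear speckles, and is not a paraspeckle component. Both RNAs lack a poly(A) tail at their long 3′ end, which RNase P makes by cutting ahead of a tRNA-like piece and which a triple helix of U-rich and A-rich tracts then protects.

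The 3′ ends show what NEAT1 and MALAT1 have in common in sequence, and they are printed for that reason, as the last 100 bases ahead of the tRNA-like piece (GENCODE v29 transcripts, hg38, plus strand, T for U). Capitals mark AAAAGCAAAA, the last 10 bases of NEAT1 and part of its A-rich tract, and the reverse complement TTTTGCTTTT, in a U-rich tract.
NEAT1, chr11:65445441-65445540: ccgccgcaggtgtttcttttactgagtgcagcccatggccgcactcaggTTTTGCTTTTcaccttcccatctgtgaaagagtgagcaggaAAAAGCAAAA
MALAT1, chr11:65506017-65506116: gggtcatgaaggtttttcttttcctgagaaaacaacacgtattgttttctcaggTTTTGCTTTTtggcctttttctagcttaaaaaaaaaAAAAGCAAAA
Of 15781 tested genes with a transcript sequence, the longest transcript of 4 (0.0253%) held TTTTGCTTTT followed by AAAAGCAAAA within 100 bases on the sense strand, namely NEAT1, MALAT1, C6orf47 and CBX8. The A-rich tract of MALAT1 had a longest run of 13 A, against 5 A in NEAT1.

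The m6A mark is written within short motifs of which GGACT is a well known example, and the densest 200-base window of that motif in each RNA is printed to show where METTL3's sequence preference could be met. Capitals mark GGACT, searched on the sense strand only.
NEAT1, chr11:65423507-65423706: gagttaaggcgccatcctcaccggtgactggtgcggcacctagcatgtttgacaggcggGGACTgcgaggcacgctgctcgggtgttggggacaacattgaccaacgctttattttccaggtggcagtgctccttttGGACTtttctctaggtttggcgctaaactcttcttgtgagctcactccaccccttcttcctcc
MALAT1, chr11:65500157-65500356: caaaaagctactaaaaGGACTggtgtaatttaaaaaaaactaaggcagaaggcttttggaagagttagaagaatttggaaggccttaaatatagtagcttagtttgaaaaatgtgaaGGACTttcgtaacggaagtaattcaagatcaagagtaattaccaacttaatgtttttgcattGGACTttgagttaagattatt
The NEAT1 window held 2 matches and the MALAT1 window 3. Of 287482 non-overlapping windows of that length in the transcripts of tested genes, 17.4% held any, 1.76% at least 2 and 0.164% at least 3. The printed windows are the densest over all positions in each RNA, so they are not like those windows. Over its whole long transcript (22743 bases), NEAT1 held 19 matches, or 0.835 per kb, close to the median of 0.930 per kb over 13819 transcripts, of which 93.7% held the motif. MALAT1 held 13 in 8708 bases, or 1.49 per kb. The files hold no m6A measurement.

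TARDBP encodes TDP-43, a protein that binds UG repeats, and the densest 120-base window of TGTGTG in NEAT1 is printed because of that. Capitals mark the repeat, on the sense strand, with overlapping matches counted.
NEAT1, chr11:65444202-65444321: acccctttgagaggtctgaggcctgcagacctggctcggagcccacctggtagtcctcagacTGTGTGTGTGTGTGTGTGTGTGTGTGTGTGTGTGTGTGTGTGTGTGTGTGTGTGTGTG
The window held 27 matches, 4.85% of 484335 non-overlapping windows of that length held any, and 0.000619% held at least as many. The printed window is the densest over all positions in NEAT1, so it is not like those windows. NEAT1 held 76 matches in all (3.34 per kb, a higher density than in 98.4% of transcripts, with a median of 0.411 and 72.6% of transcripts holding the motif), MALAT1 held 4, and SFPQ, PSPC1 and RBM14 held 0. This repeat lies near the 3′ end of the long isoform and outside the other 7 annotated NEAT1 isoforms, which all end by position 65426513.

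The DMSO libraries held 143454176 to 153825333 counts on genes and the ZW27941 libraries 143621822 to 178744976, more than the raw reads per sample named in the protocol, and whether the mates of a pair were counted separately is not given in the sources used here. Of 20399 genes that passed the expression filter, 6149 (30.1%) had an adjusted p under 0.05 by edgeR's quasi-likelihood test, Benjamini-Hochberg adjusted, with 3333 (16.3%) higher and 2816 (13.8%) lower on ZW27941. With upper quartile normalization, 57.9% of the called genes were lower in place of 45.8%. Levels below are CPM, counts scaled to the same library size with TMM factors. The cell markers in this paragraph were scaled by total gene counts alone, without TMM factors. The 9 myeloid markers of MOLM13 (SPI1, CD33, LYZ, MPO, FLT3, HOXA9, MEIS1, CSF1R and CD14) summed to 2045 to 2120 CPM in DMSO and 2288 to 2369 CPM on ZW27941, with CD14 no higher than 1.71 CPM in any library. LYZ, at 934 to 997 CPM in DMSO and 1131 to 1206 CPM on ZW27941, made up most of that difference, and the ranges of FLT3, HOXA9, MEIS1 and CD14 were not higher on ZW27941. Sums of 3 markers each were at most 0.317 CPM for T cells, 2.25 CPM for B cells, 0.00697 CPM for erythroid cells and 0.0448 CPM for epithelial cells, and HBB and HBA1 were at 0 in all 6 libraries.

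NEAT1 was lower in every ZW27941 library than in any DMSO library. It stood at 238, 228 and 219 CPM in the DMSO libraries and at 152, 149 and 152 CPM in the ZW27941 libraries. The groups lay far apart compared with their own spread, 228 ± 9.49 CPM against 151 ± 1.18 CPM (SD, n = 3 each), a difference of −0.60 on the log2 scale or −33.9%. Of 20399 genes tested, NEAT1 included, 753 had a fold change as low as that of NEAT1 or lower, and 354 (1.74% of those tested) were also called. This place is a description, since NEAT1 was chosen by its fall. In bulk RNA, fewer cells that express a gene and less of its RNA per cell cannot be told apart. The counts are per gene and do not separate the short NEAT1 isoforms, which have a poly(A) tail, from the long scaffold isoform, and the way RNA was selected for the libraries, the strand setting and the annotation used for counting are not given in the sources used here. Features nested in the locus and listed separately (NEAT1_1, NEAT1_2 and NEAT1_3) were at 0 counts in every library. Reads there would also lie in NEAT1 and may have been tallied as ambiguous, so these zeros do not show an absence of reads. Reads in no annotated feature made up 11.9% to 12.4% of reads in DMSO and 10.5% to 11.4% on ZW27941, and the myeloid marker sum was also separate between the groups. Their part in the result was not tested.

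MALAT1 did not show such a separation. It was at 689, 762 and 869 CPM in DMSO and at 613, 698 and 768 CPM on ZW27941, so the groups overlapped. Its spread, a coefficient of variation of 11.7% in DMSO and 11.2% on ZW27941, was the widest of the 9 genes in both groups, against 0.738% to 4.16% in the other 8 genes of DMSO and 0.784% to 2.94% on ZW27941. The log2 fold change was −0.16 (95% interval −0.29 to −0.03, adjusted p = 0.0602 by edgeR's quasi-likelihood test, Benjamini-Hochberg adjusted), and that interval did not reach the −0.60 of NEAT1. Single libraries decided its size. It was −0.07 without DMSO replicate 3 (adjusted p = 0.457) and −0.08 without ZW27941 replicate 1 (adjusted p = 0.323). MALAT1 passed the threshold without DMSO replicate 1 (−0.23, adjusted p = 0.0114) or ZW27941 replicate 3 (−0.24, adjusted p = 3.23e-04), and with 3 other settings of the same test. With the Wald test of DESeq2 it did not pass (−0.16, adjusted p = 0.391). The ratio of NEAT1 to MALAT1 within a library, which needs no normalization between libraries, was 0.299 ± 0.0467 in DMSO and 0.220 ± 0.0253 on ZW27941 (SD, n = 3) without overlap, and is given as a description because it contains NEAT1. The gap was narrow, with a log2 ratio of −1.99 in DMSO replicate 3 and −2.02 in ZW27941 replicate 1. In both groups the ratio fell with the replicate number.

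**Figure D1:**
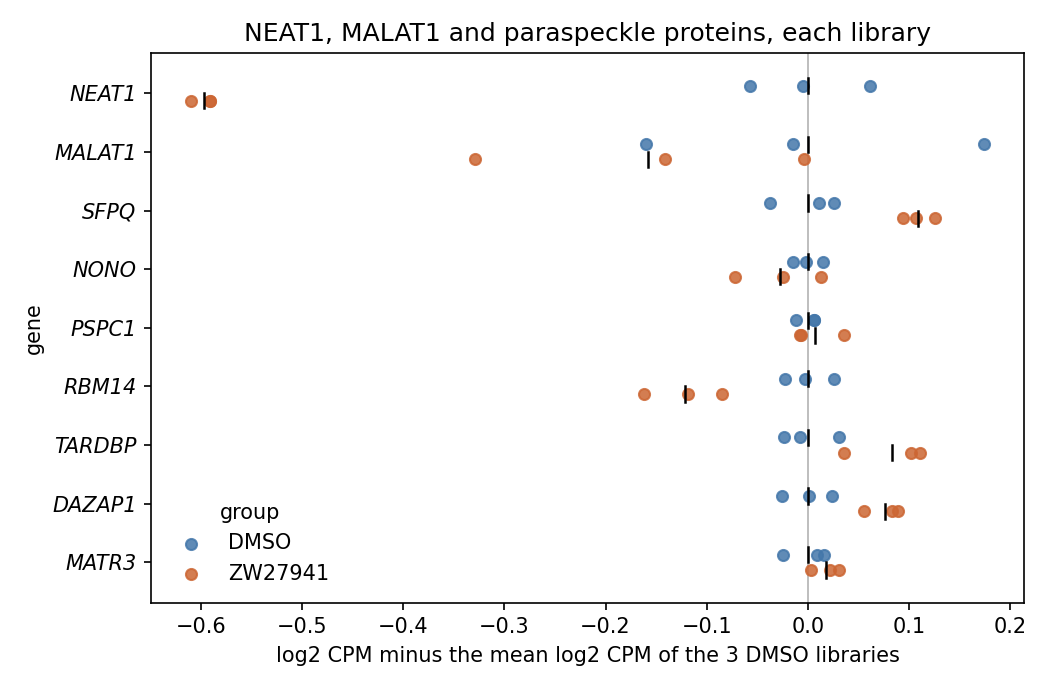
Level of each of the 9 genes in each library, as log2 CPM minus the mean of the 3 DMSO libraries (points), with black ticks at group means. NEAT1 on ZW27941 lies near −0.60, the MALAT1 groups overlap, and the mean differences of the protein genes run from −0.12 to 0.11.

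Among MALAT1 and the 7 proteins, 3 genes rose, 1 fell and 4 did not pass the test, against the 30.1% of all genes called, and the groups did not overlap for 4 of the 8, against 41.6% of all genes (21.7% higher and 19.9% lower). In the core family of 3 proteins, SFPQ passed the test and NONO and PSPC1 did not. SFPQ, which is needed for paraspeckles to form, was at 502, 497 and 481 CPM in DMSO and at 531, 526 and 538 CPM on ZW27941, and every ZW27941 library was above every DMSO library. It rose by 0.11 on the log2 scale (SE 0.025, adjusted p = 0.00206 by edgeR's quasi-likelihood test, Benjamini-Hochberg adjusted), opposite in direction to NEAT1, and passed the threshold under all 14 alternatives tried. NONO, its main partner, was at 671, 677 and 685 CPM in DMSO and at 645, 684 and 666 CPM on ZW27941. The NONO groups overlapped and the log2 fold change was −0.028 (95% interval −0.08 to 0.03, adjusted p = 0.468). Its processed copy NONOP2 had 157 to 218 counts per library against at least 96173 for NONO. PSPC1, which can pair with either, was at 104, 103 and 104 CPM in DMSO and at 103, 104 and 107 CPM on ZW27941. Its log2 fold change was 0.0074 (95% interval −0.04 to 0.06, adjusted p = 0.855), and its sign changed with upper quartile normalization.

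Proportions within the family were compared inside each library. The ratio of SFPQ to NONO counts was 0.728 ± 0.0240 in DMSO and 0.800 ± 0.0278 on ZW27941 (SD, n = 3), a difference of 0.14 on the log2 scale without overlap (exact two-sided permutation p = 0.1, 0.15 after adjustment over 3 ratios). SFPQ to PSPC1 was 4.75 ± 0.122 against 5.09 ± 0.0457, also without overlap, with a log2 difference of 0.10 and the same exact p = 0.1. PSPC1 to NONO was 0.153 ± 0.00191 against 0.157 ± 0.00503 with overlap (exact permutation p = 0.4). An exact test of 3 against 3 libraries cannot go below 0.1, so none of the 3 ratios could pass 0.05.

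Of the other RNA-binding proteins, RBM14, which carries a prion-like domain and is needed to assemble the body, fell. It was at 81.4, 83.0 and 80.3 CPM in DMSO and at 76.9, 72.9 and 75.1 CPM on ZW27941. The groups did not overlap, and RBM14 fell by 0.12 on the log2 scale (SE 0.027, adjusted p = 0.00159 by edgeR's quasi-likelihood test, Benjamini-Hochberg adjusted), a call kept under all 14 alternatives. It was the single protein of the 7 to fall, with a change of −8.04% against −33.9% for NEAT1, and its 95% interval (−0.18 to −0.06) did not reach the −0.60 of NEAT1. The read-through gene RBM14-RBM4, which shares its exons, had 61 to 100 counts per library against at least 10509 for RBM14. Reads in shared exons may have gone to HTSeq's ambiguous tally (2.69% to 2.80% of reads per library). The counts of both genes may lack such reads, so they do not measure read-through.

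TARDBP was at 127, 122 and 123 CPM in DMSO and at 127, 133 and 134 CPM on ZW27941, so the groups were separate by a narrow gap. It rose by 0.08 on the log2 scale (SE 0.027, adjusted p = 0.0200 by edgeR's quasi-likelihood test, Benjamini-Hochberg adjusted). DAZAP1, an RNA-binding protein also required for paraspeckles, was at 333, 328 and 322 CPM in DMSO and at 347, 341 and 349 CPM on ZW27941, and rose by 0.08 (SE 0.024, adjusted p = 0.0205). Both calls depended on the settings. TARDBP missed the threshold with upper quartile normalization (0.06) and without any 1 of DMSO replicates 2 and 3 and ZW27941 replicates 2 and 3 (0.07 to 0.08), and DAZAP1 with upper quartile normalization (0.05) and without DMSO replicate 2 or 3 or ZW27941 replicate 1 (0.06 to 0.08). MATR3, a protein of the nuclear matrix that binds RNA, was at 410, 401 and 412 CPM in DMSO and at 409, 417 and 414 CPM on ZW27941. Its groups overlapped, with a log2 fold change of 0.018 (95% interval −0.03 to 0.07, adjusted p = 0.615), which changed sign with upper quartile normalization.

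In hg38 with GENCODE v29, the protein genes lie at chr1:35176378-35193148 (SFPQ, minus strand), chrX:71283192-71301168 (NONO), chr13:19674752-19783019 (PSPC1, minus strand), chr11:66616582-66627347 (RBM14), chr1:11012344-11026420 (TARDBP), chr19:1407569-1435687 (DAZAP1) and chr5:139273752-139331671 (MATR3), on the plus strand where not stated. GENCODE v29 gives the symbol MATR3 to a second, overlapping gene at chr5:139293648-139331677, and the deposited counts hold 1 value for the symbol. The 9 genes had 10509 to 132802 counts per library and a counting error of at most 0.975%. That error covers counting only. Per length of annotated exons (RPKM, CPM divided by the kilobases in the union of GENCODE v29 exons), the order in DMSO was NONO (128 RPKM), MALAT1 (87.6), SFPQ (66.4), DAZAP1 (35.6), MATR3 (30.7), PSPC1 (21.6), RBM14 (20.7), TARDBP (20.4) and NEAT1 (10.0 RPKM). Among neighbours in that order, only RBM14 and TARDBP overlapped between libraries. On ZW27941, NEAT1 was at 6.62 RPKM and again the lowest, RBM14 (19.0 RPKM) lay below TARDBP (21.6 RPKM) without overlap, and MALAT1 (78.5 RPKM) overlapped with SFPQ (71.6 RPKM). The length used for NEAT1 is that of the long isoform, so its RPKM depends on which isoforms the reads came from. The length used for RBM14 includes exons shared with RBM14-RBM4, whose reads may have been tallied as ambiguous.

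**Figure D2:**
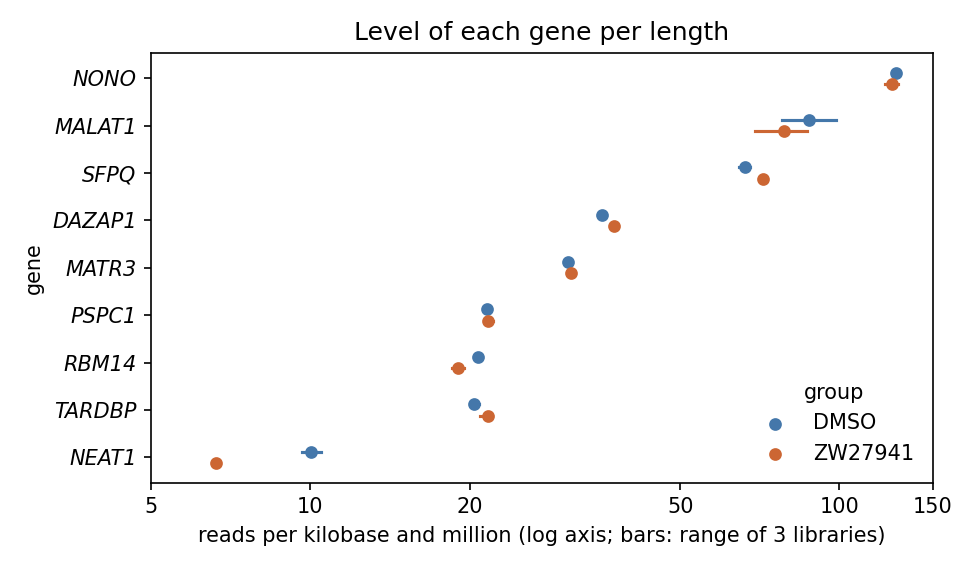
Level per length of the 9 genes in RPKM (log axis), with points at group means and bars over the range of 3 libraries. NONO is highest at 128 RPKM and NEAT1 lowest in both groups, at 10.0 RPKM in DMSO and 6.62 RPKM on ZW27941.

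A wider list of paraspeckle proteins, written from their names, held genes that rose and genes that fell. Of 36 genes, 34 were tested (CELF6 and FIGN did not pass the filter), 9 rose, 5 fell and 20 did not pass, so 41.2% were called against 30.1% of all genes, with a median log2 fold change of 0.035 against −0.0019 over all genes tested. With upper quartile normalization, 7 rose and 7 fell. The 34 values ran from −0.11 to 0.32, and the 95% interval of none reached the change of NEAT1. HNRNPF, a splicing protein that binds G-rich RNA, rose from 370 ± 0.803 to 442 ± 6.41 CPM (SD, n = 3), 0.25 on the log2 scale (adjusted p = 6.27e-08 by edgeR's quasi-likelihood test, Benjamini-Hochberg adjusted). HNRNPR, another RNA-binding protein of the hnRNP group, rose by 0.16 (adjusted p = 2.24e-05). SMARCB1, a subunit of the SWI/SNF chromatin remodelling complex, fell by 0.11 (adjusted p = 0.00445), and AKAP8L, a nuclear anchoring protein, by 0.09 (adjusted p = 0.00824).

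The choice between the short and the long NEAT1 isoform is set by cleavage factor CPSF6 with NUDT21, which favours the short 3′ end, and by HNRNPK, which opposes it. CPSF6 rose from 197 ± 4.75 to 214 ± 3.44 CPM (log2 fold change 0.12, adjusted p = 6.96e-04), NUDT21 had a log2 fold change of 0.0016 (adjusted p = 0.967), and HNRNPK fell from 762 to 729 CPM (−0.06, adjusted p = 0.0465), all by edgeR's quasi-likelihood test, Benjamini-Hochberg adjusted. These 3 genes were singled out after their values were seen. Isoforms of NEAT1 could not be measured from the counts.

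**Figure D3:**
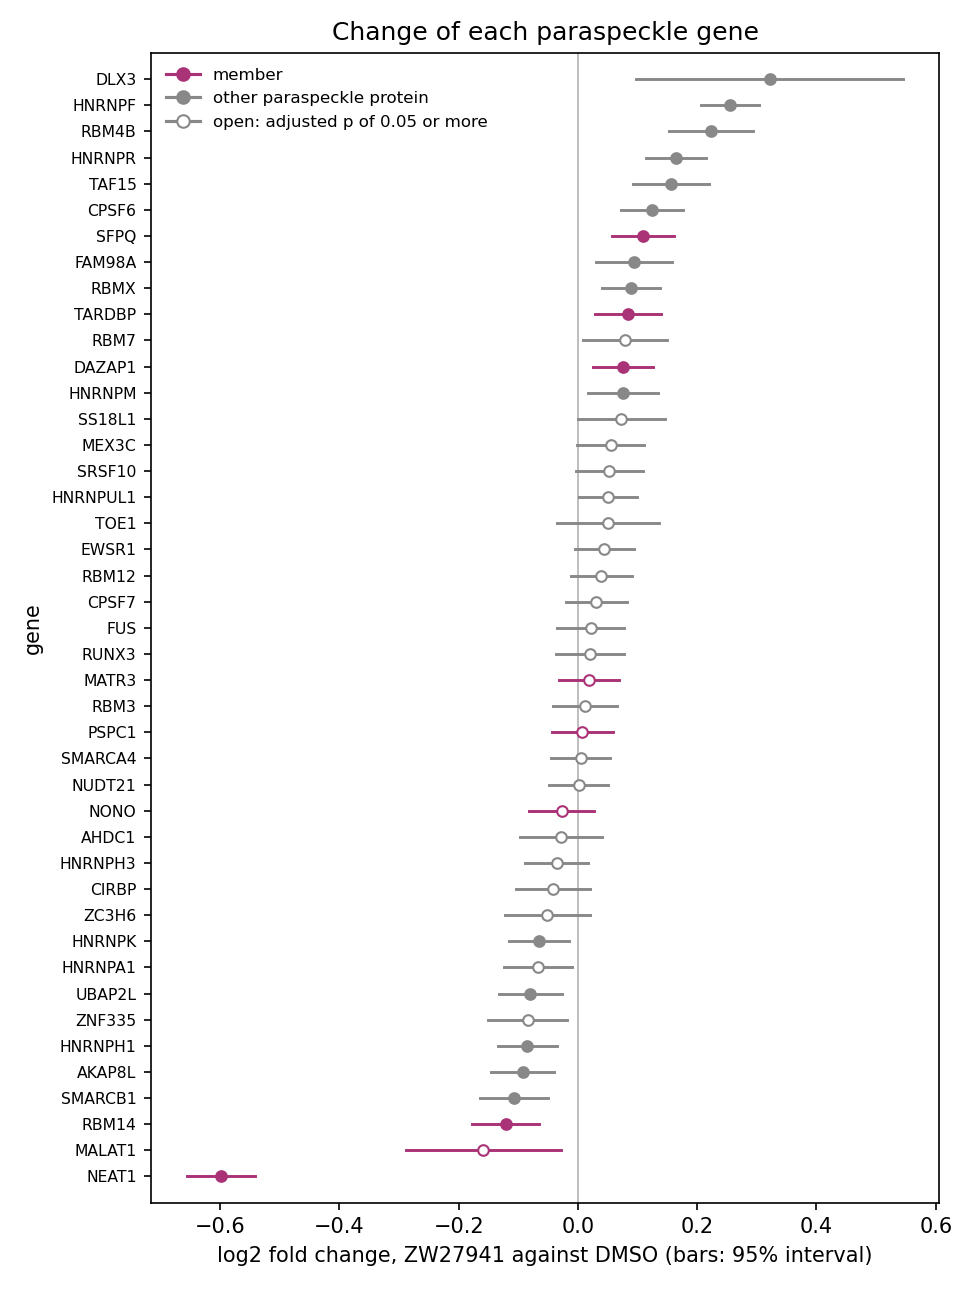
Log2 fold change, ZW27941 against DMSO, of the 9 genes (purple) and the 34 other paraspeckle proteins (grey), with 95% intervals as bars and open points for an adjusted p of 0.05 or more by edgeR's quasi-likelihood test. NEAT1 lies alone at −0.60, and the 34 others run from −0.11 to 0.32. The filled point and the interval of NEAT1 are a description and not a test.

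The machinery that cuts the long 3′ ends was listed as RNase P proteins and ELAC2, the RNase Z that trims the tRNA-like piece. Of these 12 genes, 3 rose, 1 fell and 8 did not pass, with a median log2 fold change of 0.048. The share called, 33.3%, was near the 30.1% of all genes. POP5 rose from 48.0 ± 1.75 to 56.3 ± 1.45 CPM (0.23, adjusted p = 5.74e-06) and RPP25 from 26.8 ± 0.958 to 30.6 ± 0.169 CPM (0.19, adjusted p = 8.41e-05), while RPP40 fell from 10.1 ± 0.262 to 9.06 ± 0.214 CPM (−0.15, adjusted p = 0.0203), by edgeR's quasi-likelihood test, Benjamini-Hochberg adjusted. The third gene that rose was RPP25L, at 0.21.

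Nuclear speckles, where MALAT1 resides, were described by 20 proteins, of which 5 rose, 3 fell and 12 did not pass (40% called against 30.1% of all genes), with a median log2 fold change of 0.010. DDX39B, an RNA helicase of mRNA export, rose from 341 ± 6.39 to 383 ± 5.01 CPM (0.16, adjusted p = 2.50e-05), and SON, a core protein of the speckle, from 433 to 485 CPM (0.16, adjusted p = 3.86e-05). CLK1, a kinase of SR splicing proteins, fell from 117 ± 2.46 to 105 ± 1.46 CPM (−0.16, adjusted p = 5.67e-05), and RNPS1, a splicing activator, by 0.07 (adjusted p = 0.0184), by edgeR's quasi-likelihood test, Benjamini-Hochberg adjusted. Without DMSO replicate 2 or 3, the count of speckle proteins called was 5 in place of 8.

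Other long non-coding RNAs were described by a list of 19 symbols. Of the 16 tested, 1 rose, 5 fell and 10 did not pass (37.5% called against 30.1% of all genes, and 5 of 16 lower against 13.8% of all genes), with a median log2 fold change of −0.048, and LINC00657, CYTOR and TALAM1 were not found under those symbols. PVT1 fell from 27.3 ± 0.830 to 21.1 ± 0.403 CPM (−0.37, adjusted p = 3.28e-08) and EPB41L4A-AS1 from 37.4 ± 0.835 to 30.9 ± 1.24 CPM (−0.28, adjusted p = 1.42e-06), by edgeR's quasi-likelihood test, Benjamini-Hochberg adjusted. DANCR rose from 28.6 ± 1.18 to 30.5 ± 0.309 CPM (0.09, adjusted p = 0.0349), and no gene of the list was called higher with upper quartile normalization, where 7 were lower, or without any 1 of DMSO replicates 2 and 3 and ZW27941 replicates 1 and 2. FTX, at 5.59 ± 0.509 CPM in DMSO and 3.95 ± 0.443 CPM on ZW27941, had the lowest fold change of the list (−0.50, adjusted p = 7.93e-05), and its 95% interval, alone among the 16, included the −0.60 of NEAT1.

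Of the chromosome 11 neighbours of NEAT1, 4 of 18 (22.2%) passed the test, against 30.1% of all genes. NEAT1 (chr11:65422774-65445540, hg38) and MALAT1 (chr11:65497688-65506516) lie on the plus strand with starts 74.9 kb apart. FRMD8, the nearest of the listed neighbours upstream of NEAT1, was at 28.6 CPM in DMSO and 28.4 CPM on ZW27941 (log2 fold change −0.0070, adjusted p = 0.913), by edgeR's quasi-likelihood test, Benjamini-Hochberg adjusted. Of 18 neighbours tested, 3 rose (SIPA1 by 0.23, EHBP1L1 by 0.16 and SLC25A45 by 0.27), 1 fell (DPF2, a subunit of a chromatin remodelling complex, by 0.19, adjusted p = 3.94e-05) and 14 did not pass, with a median of 0.055. Among those 14 were FRMD8, CAPN1, POLA2, CDC42EP2, TIGD3, LTBP3, SSSCA1, FAM89B, KCNK7, MAP3K11, PCNX3, RELA and KAT5. KCNK7, at 0.146 CPM in DMSO and 0.0900 CPM on ZW27941, was the only neighbour with a fold change below that of NEAT1 (−0.66, 95% interval −1.43 to 0.11). The pseudogene AP000769.1, between NEAT1 and MALAT1, had 90 to 183 counts per library and a log2 fold change of −0.40 (adjusted p = 0.0848).

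**Figure D4:**
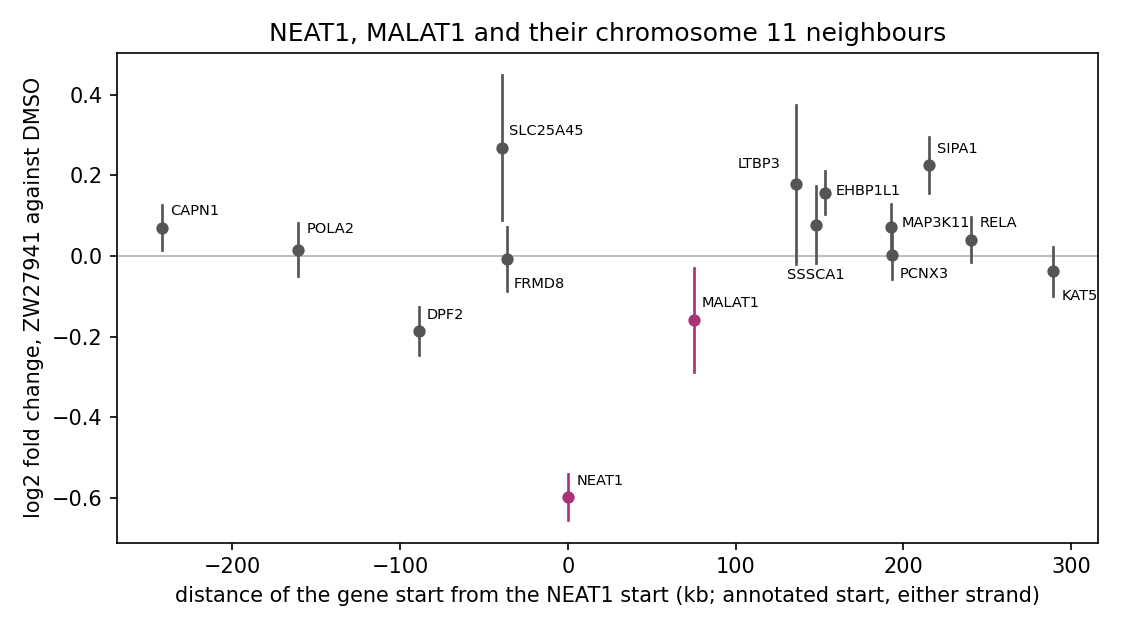
Log2 fold change, ZW27941 against DMSO, of NEAT1, MALAT1 (purple) and chromosome 11 neighbours reported here with at least 1 CPM in DMSO (grey), against the distance of the annotated gene start from that of NEAT1 in kb, with 95% intervals as bars. NEAT1 lies at −0.60, whereas FRMD8, just upstream, lies near 0.

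Of the transcription factors known to act on NEAT1, HIF1A, a hypoxia factor, rose from 44.0 ± 0.939 to 48.5 ± 0.624 CPM (0.14, adjusted p = 5.33e-04) and HSF1, the heat shock factor, from 85.5 ± 0.829 to 90.6 ± 2.34 CPM (0.08, adjusted p = 0.0177), by edgeR's quasi-likelihood test, Benjamini-Hochberg adjusted. EPAS1 rose by 0.12 (adjusted p = 0.0189), and ARNT and ATF2 did not pass. These calls depended on the settings, since 1 gene of the list was called higher with upper quartile normalization and 2 with any single library left out, in place of 3.

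The genes with the profile most like that of NEAT1 were ranked by the root mean square difference of log2 CPM relative to the DMSO mean over the 6 libraries, among 8424 genes at a mean log2 CPM of 4 or more. The nearest was NCF1, a subunit of the phagocyte NADPH oxidase (0.069), at 131, 140 and 138 CPM in DMSO and 89.3, 92.5 and 94.3 CPM on ZW27941, followed by ANKRD18DP (0.10), RP11-463O12.5 (0.11), SLC5A3, a sodium and myo-inositol transporter (0.11), and PGGHG (0.13). NCF1 has near-identical pseudogene copies, so its counts are uncertain. The likeness is a description over libraries of which 3 share each treatment.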

How the data were processed

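RNA of 3 DMSO and 3 ZW27941 libraries was analysed as groups given by the labels. Counts were deposited by the authors as HTSeq made them, without normalization, and per the labels (the submitters' processing notes) HISAT2, SAMtools 1.19.2, HTSeq 2.0.3 and build hg38 were used. The 5 HTSeq tallies (37.4% to 39.8% of reads per library) were left out. In R 4.3.3, edgeR 4.0.16 was run on the counts with TMM normalization (factors 0.994 to 1.01), filterByExpr, the quasi-likelihood test and Benjamini-Hochberg adjustment over 20399 genes, with a threshold of 0.05. The common biological coefficient of variation was 3.11%. Fold changes are differences of log2 values, and means ± SD are of CPM. Replicates differed beyond sampling noise (chi-square per degree of freedom 4.33 to 11.5 within groups), so each counted once.

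The members and lists were chosen with earlier results of these data known. Named were all members, the neighbours tested, the 2 genes called higher and the 2 called lower with the lowest p in each other list, and the 5 genes with the profile nearest to NEAT1, with a pseudocount of 0.01 CPM. EPAS1, FTX, RPP25L and AP000769.1 were named after their values were seen. Alternatives were RLE, upper quartile or no normalization factors, no filter, at least 10 counts in every library, DESeq2 1.42.0, the replicate number as a block, each library left out and, chosen after seeing the data, thinning to the smallest library. On simulated counts for this comparison (20145 genes), all 44 genes changed by 1.2-fold and all 51 changed by 1.5-fold with at least 1000 counts were recovered, with 4 false calls. Every simulated gene was given the same dispersion, so this recovery need not hold for genes with a wider spread, such as MALAT1. Over all changed genes, low counts included, 51 of 99 (1.2-fold) and 76 of 99 (1.5-fold) were recovered, so changes of low genes can be missed. Sequences and loci came from GENCODE v29, which is not stated to be the annotation counted against. RPKM used the union of exons. Some genes of the lists count in their totals but are not reported here by name.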

Additional observations from a re-analysis of the deposited data

How the results depend on the processing

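SFPQ and RBM14 kept their direction and their call under all 14 alternatives, and NONO passed the threshold under none of them and kept its direction. NEAT1 ranged from −0.63 to −0.57 with 1 library left out and from −0.62 to −0.59 otherwise. Leaving out 1 library moved the count of genes called among the 8 without NEAT1 from 4 to between 2 and 5, the lowest without DMSO replicate 2 or 3. It moved the other paraspeckle proteins from 14 to between 9 and 14, with 9 without DMSO replicate 2, and the speckle proteins from 8 to between 5 and 8. Over all genes it left 4836 to 6134 called, against 5731 to 6287 otherwise. MALAT1 ranged from −0.24 to −0.066 with 1 library left out, and passed the threshold with upper quartile normalization (−0.18, adjusted p = 0.0325) and with no filter on low counts (−0.15, adjusted p = 7.54e-08). With DESeq2, MALAT1 did not pass. Upper quartile normalization shifted the median of all genes by −0.023, turned PSPC1 to −0.016 and MATR3 to −0.0051, and left TARDBP at 0.060 (adjusted p = 0.0924) and DAZAP1 at 0.053 (adjusted p = 0.109). With 1 library left out, PSPC1 ranged from −0.0094 (without ZW27941 replicate 3) to 0.015, TARDBP from 0.067 to 0.11 and DAZAP1 from 0.064 to 0.089. The cause of these changes was not tested. All p-values here are by edgeR's quasi-likelihood test, Benjamini-Hochberg adjusted.

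Over 10094 genes, deviations of same-numbered DMSO and ZW27941 libraries correlated at 0.070, −0.15 and −0.12. Libraries with different numbers correlated at −0.067 to 0.17. These values show no pairing by number over all genes, but cannot exclude one for single genes. MALAT1 rose with the replicate number in both groups. With the replicate number as a block, 6010 of all genes and 6 of the 9 were called, and MALAT1 passed the threshold (−0.16, adjusted p = 1.5e-05).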
